A study of Mus musculus with 2 samples.

Results

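The Hedgehog pathway genes are 9 genes chosen by symbol for their known place in the pathway: the receptor gene Ptch1, the signal transducer Smo, the transcription factor genes Gli1, Gli2 and Gli3, the inhibitors Sufu and Hhip, and the co-receptors Gas1 and Boc. All 9 were found among 18651 genes that had reads in at least 1 of 2 RNA sequencing libraries. One library came from Seh1cKO cells, labelled mutant and carrying a conditional knockout of Seh1l, which encodes a protein shared by the nuclear pore scaffold and the amino acid sensing GATOR complexes. The other came from control cells, labelled wild type. Both were C57BL/6 oligodendrocyte precursors immunopanned from the cortex of pups at 4 to 7 days of age, with anti-GalC plates before anti-O4 plates. Expansion medium of both cultures held PDGF-AA and bFGF at 20 ng/ml each, CNTF at 10 ng/ml and NT3 at 1 ng/ml. They were then moved to medium with the thyroid hormone T3 (60 nM) and without PDGF-AA, bFGF and NT3, and were read on day 2 as immature oligodendrocytes. The Cre driver, the deleted exons, and how many animals or cultures entered each library are not stated by the labels.

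Hedgehog ligands bind the receptor Ptch1, which otherwise holds the membrane protein Smo inactive. Active Smo acts at the primary cilium, where it relieves the restraint that Sufu and protein kinase A place on Gli2 and Gli3, and the Gli factors then turn on target genes that include Gli1, Ptch1 and Hhip. In the developing forebrain and spinal cord the ligand Sonic hedgehog is known for specifying ventral progenitors, among them the first oligodendrocyte precursors.

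With 1 library per genotype there was no test of the genotype. A fold below is the ratio of CPM, reads per 1000000 reads of the library, with an exact 95% interval that covers counting error only. The libraries held 20599590 reads in Seh1cKO and 20730114 reads in control after rounding. Seh1l itself had 382 reads in Seh1cKO and 666 reads in control, 1.73-fold lower (1.53 to 1.97), counted over the whole gene. The libraries also differed in their markers of cells. Summed over 13 markers of the oligodendrocyte lineage, the level was 2793 CPM in Seh1cKO and 5102 CPM in control, with 9 of 13 at least 2-fold lower and none of them at 0. The list did not move as one: Olig1 was level at 873 and 864 CPM, and Olig2 and the precursor markers Pdgfra and Cspg4 were 1.31-fold (1.27 to 1.34), 1.77-fold (1.70 to 1.85) and 1.50-fold (1.42 to 1.59) higher in Seh1cKO. Summed over 12 fibroblast and mural cell markers it was 1302 CPM in Seh1cKO and 604 CPM in control, with 7 of 12 at least 2-fold higher and none at 0. Summed over 10 astrocyte markers it was 5408 CPM in Seh1cKO and 8966 CPM in control, none being at 0 and 2 of 9 measured being at least 2-fold lower. Gfap made up most of that difference, at 2214 CPM in Seh1cKO and 5200 CPM in control. Of the 9 measured astrocyte markers, 7 had a counting interval below 1. Among them, Slc1a3 was 1.14-fold lower (1.12 to 1.17) and Aldoc 1.33-fold lower (1.30 to 1.37). The other 2, Gja1 and Aldh1l1, were 1.40-fold (1.33 to 1.48) and 1.17-fold (1.13 to 1.20) higher. Endothelial markers summed to 25.4 CPM in Seh1cKO and 11.1 CPM in control, microglia markers to 16.8 and 7.77 CPM, and neuron markers to 436 and 414 CPM. These sums hide splits. Cdh5 had 13.8 CPM in Seh1cKO and 1.01 CPM in control, while the counting intervals of Kdr and Flt1 held 1. Cd68 and Tmem119 were 2.26-fold (1.72 to 3.01) and 4.81-fold (2.87 to 8.49) higher in Seh1cKO, while the interval of P2ry12 held 1. Of 6 neuron markers, 4 had an interval above 1, with Stmn2 2.05-fold higher (1.86 to 2.27). Tubb3 was 1.14-fold lower (1.07 to 1.22), and the interval of Map2 held 1. Sex-linked genes differed, with Xist at 341 CPM in Seh1cKO and 0.868 CPM in control, and the Y-linked Eif2s3y with 1 read in Seh1cKO and 1705 reads in control. In bulk RNA, fewer cells of a type and less RNA per cell cannot be told apart. The part of these markers in the values below was not tested, and sex and genotype cannot be told apart.

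Promoter sequences are given for a pair of members, Ptch1 because it is the textbook Gli target and Gas1 because it differed most between the libraries. Each run is the 250 bases before the 1 transcription start that the RefSeq promoter table of GRCm38.p6 gives for the gene, 5′ to 3′ on the gene's strand, with CpG dinucleotides in capitals. The Ptch1 run is chr13:63565736-63565985 on the minus strand, and the Gas1 run is chr13:60177536-60177785 on the minus strand.
Ptch1: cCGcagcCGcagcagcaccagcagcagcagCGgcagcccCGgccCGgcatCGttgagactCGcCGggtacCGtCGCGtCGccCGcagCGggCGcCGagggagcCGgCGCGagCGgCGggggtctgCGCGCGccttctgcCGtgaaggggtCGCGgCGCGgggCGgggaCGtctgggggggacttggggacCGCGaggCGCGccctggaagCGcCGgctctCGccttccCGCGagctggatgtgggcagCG
Gas1: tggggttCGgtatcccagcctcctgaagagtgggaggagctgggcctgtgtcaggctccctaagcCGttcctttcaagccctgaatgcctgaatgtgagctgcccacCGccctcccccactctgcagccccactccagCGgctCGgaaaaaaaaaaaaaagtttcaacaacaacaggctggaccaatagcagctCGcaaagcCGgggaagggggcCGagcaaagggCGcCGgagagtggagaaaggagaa
The table's start need not be the outermost one. The Ptch1 window lies inside the RefSeq gene span, with 7475 bases of the gene upstream of it, the Gli2 window has 536 such bases, and 52 bases of the Hhip window lie in its gene. The Ptch1 window held 41 CpG dinucleotides at 78.4% GC and the Gas1 window 10 at 58.8% GC. All 250 bases of the Gas1 window lie in an exon of Gm48488, a long non-coding RNA gene on the opposite strand. Of the 9 members 7 were matched in the table (Ptch1, Smo, Gli2, Gli3, Sufu, Hhip and Gas1). Their windows held 8 to 41 CpG dinucleotides at 54.0% to 78.4% GC, against medians of 6 and 52.4% over all 32851 promoters of that length. The Gli consensus TGGGTGGTC was searched on both strands with at most 1 mismatch. None of the 7 windows held such a match, which 5.79% of all promoters did, and 0.225% held the exact word. This says only that these letters are not in these windows.

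Most members stood somewhat higher in Seh1cKO, and no measured member differed by as much as 2-fold. A gene counted as measured if its 2 values averaged 1 CPM or more, which 8 of the 9 members reached and Gli1 did not. On the log2(CPM + 1) scale, Seh1cKO minus control, 0 of 8 were at least 2-fold higher and 0 of 8 at least 2-fold lower, against 2.86% and 1.29% of the 13758 measured genes. The log2 ratio was above 0 in 7 members and below 0 in Boc, where 60.9% of measured genes were above 0 and 39.1% below. Their median log2 ratio was 0.45, from -0.27 in Boc to 0.74 in Gas1, and the median of all measured genes was 0.07. On the deposited FPKM scale with a pseudocount of 1 FPKM the member median was 0.22, and 204 genes in all were at least 2-fold higher and 148 lower, against 394 and 178 on the CPM scale. The counting interval lay above 1 for 6 of the 8, below 1 for Boc and held 1 for Sufu. Such intervals lay above 1 for 35.5% and below 1 for 20.0% of measured genes, so at this depth a counting difference is common.

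**Figure D1:**
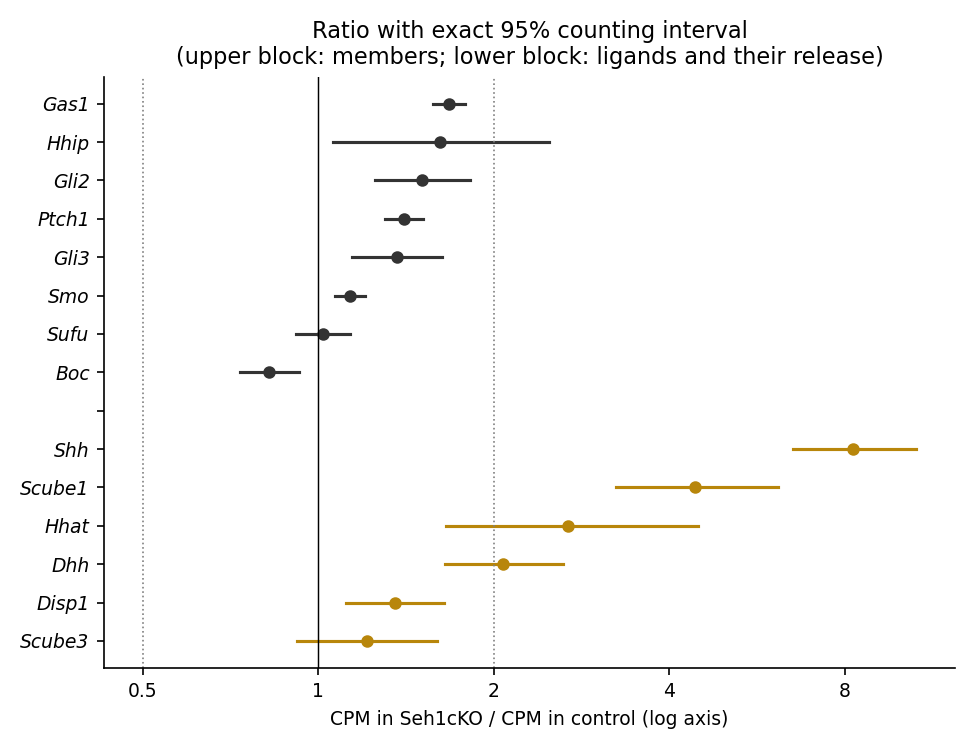
Ratio of CPM in Seh1cKO to CPM in control on a log axis, 1 row per measured gene, with members in the upper block and genes of the ligands and their release in the lower block. Points are ratios, lines are exact 95% counting intervals, the solid vertical line is equality and the dotted lines are 2-fold either way. The members run from 0.824 for Boc to 1.68 for Gas1, while Shh stands at 8.26.

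The receptor Ptch1 (Entrez 19206, GRCm38 chromosome 13, 63508328 to 63573460) had 82.8 CPM in Seh1cKO and 59.0 CPM in control. It was 1.40-fold higher (1.30 to 1.51), with a log2 ratio above that of 87.1% of measured genes. Its counts pool 2 RefSeq transcripts, and the length that the authors averaged over them was 7322.50 bases in Seh1cKO and 7322.31 in control, so the deposited length hardly differed. Smo (Entrez 319757, chromosome 6, 29735497 to 29761366), the seven-pass membrane protein that Ptch1 restrains, had 112 CPM in Seh1cKO and 98.7 CPM in control. That is 1.13-fold higher (1.07 to 1.20), the smallest of the 6 member differences whose interval lay above 1. Within a library the ratio of Ptch1 to Smo was 0.400 in Seh1cKO and 0.323 in control on the FPKM scale, which divides reads by transcript length and library size. The read ratio of Ptch1 to Smo was thus 1.24 times as large in Seh1cKO (exact conditional interval 1.12 to 1.36).

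The co-receptors went opposite ways. Gas1, a lipid-anchored surface protein that helps present ligand to Ptch1 and was first described in cells under growth arrest (Entrez 14451, chromosome 13, 60174405 to 60177535), had 121 CPM in Seh1cKO and 72.5 CPM in control. It was 1.68-fold higher (1.57 to 1.79), above 94.0% of measured genes. Boc, an immunoglobulin and fibronectin domain co-receptor (Entrez 117606, chromosome 16, 44485045 to 44558870), had 25.9 CPM in Seh1cKO and 31.5 CPM in control. It was 1.21-fold lower (1.08 to 1.36), with a log2 ratio above that of 11.2% of measured genes. Cdon, the close relative of Boc and not one of the 9, had 42.4 CPM in Seh1cKO and 22.6 CPM in control, 1.88-fold higher (1.68 to 2.11), so the pair of related co-receptors stood on opposite sides of equality.

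Per transcript length Gas1 made up most of the co-receptor level in both libraries. Gas1 was at 38.27 FPKM in Seh1cKO and 22.84 FPKM in control, Boc at 5.79 and 7.03, and Cdon at 5.78 and 3.08. Boc was 11.6% of the summed FPKM of the 3 genes in Seh1cKO and 21.3% in control, and Gas1 was 76.8% and 69.3%. The read ratio of Gas1 to Boc was 2.03 times as large in Seh1cKO (1.78 to 2.32), and that of Cdon to Boc 2.28 times (1.94 to 2.69). For Gas1 to Cdon the change was 0.892 (0.782 to 1.02), an interval that holds 1. These within-library ratios do not depend on how the libraries are scaled. Fibroblasts also express Gas1, and the markers of fibroblasts and mural cells had a median log2 ratio of 1.64 over 12 genes, whose part in the Gas1 value was not tested. The Gas1 exon shares 589 bases with the same Gm48488, and no source used here gives the strand setting of the counting, so reads of both could be counted together.

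**Figure D2:**
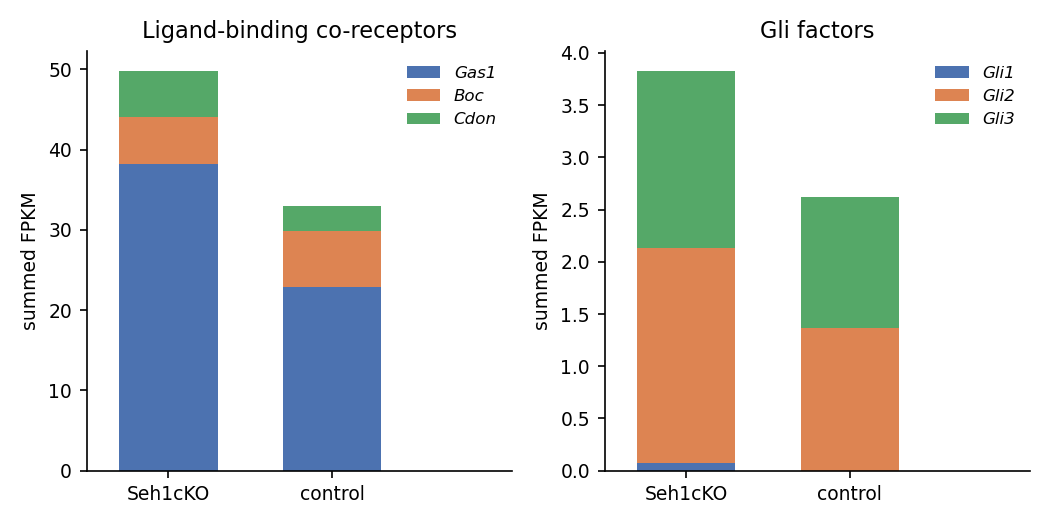
Summed FPKM of the co-receptors Gas1, Boc and Cdon (left) and of Gli1, Gli2 and Gli3 (right), with Seh1cKO and control as stacked bars from 0 and 1 library each. The co-receptor sum is 49.8 FPKM in Seh1cKO and 33.0 FPKM in control, and the Boc segment is the smaller one in Seh1cKO. The Gli sum is 3.83 FPKM in Seh1cKO and 2.62 FPKM in control, with Gli2 and Gli3 in near equal parts.

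The Gli factors were present as Gli2 and Gli3, with Gli1 at the limit of detection. Gli2, the main activator of the pathway (Entrez 14633, chromosome 1, 118834061 to 119054405), had 289 reads in Seh1cKO and 193 in control, or 14.0 and 9.31 CPM. It was 1.51-fold higher (1.25 to 1.82). Gli3, which in the absence of ligand is cut to a repressor (Entrez 14634, chromosome 13, 15463723 to 15730026), had 300 reads in Seh1cKO and 221 in control, or 14.6 and 10.7 CPM. It was 1.37-fold higher (1.14 to 1.63). The ratio of Gli2 to Gli3 was 1.21 in Seh1cKO and 1.10 in control on the FPKM scale, a change of 1.10 in reads whose interval of 0.851 to 1.43 holds 1. The read ratio of these genes therefore did not differ beyond counting error, with 1 library per genotype. It does not measure the amount of cut Gli3 protein.

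Gli1, an activator that is itself a target and is widely read as a gauge of pathway activity (Entrez 14632, chromosome 10, 127329882 to 127341579), had a deposited count of 5.52 in Seh1cKO and was not listed for control, where it was set to 0. The control values start at a count of 0.18, so a gene with 1 read could have been listed. Rounded to 6 reads this is 0.291 CPM in Seh1cKO, while a count of 0 in control allows up to 3 reads, or 0.145 CPM. Against that floor the 6 reads were 2.01-fold higher, a value that leaves out the counting error of the 6 reads. The exact lower bound from 6 and 0 reads was 1.18, and it rests on rounding 5.52 up. The log2 ratio of Gli1 was 0.08 with a pseudocount of 5 CPM and 1.97 with a pseudocount of 0.1 CPM. The count is not whole, and its fraction was completed by Arhgap9, a gene on the opposite strand that shares 62 exon bases with Gli1. Arhgap9 had a deposited count of 2.48 in Seh1cKO and 1 in control, and the sum of the pair was a whole 8 reads in Seh1cKO and 1 in control, to 2 decimals. A further 265 exon bases of Gli1 are shared with the antisense gene Gm47200, so the assignment of these few reads is uncertain. Gli1 was far below the receptor and transducer per length, at 0.07 FPKM in Seh1cKO beside 11.15 for Ptch1 and 27.88 for Smo.

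Of the inhibitors, Hhip was low and Sufu was level. Hhip, a membrane-anchored decoy that binds ligand and is induced by the pathway (Entrez 15245, chromosome 8, 79965850 to 80058060), had 61 reads in Seh1cKO and 38 in control, or 2.96 and 1.83 CPM. It was 1.62-fold higher with a wide interval of 1.06 to 2.49. The read ratio of Hhip to Ptch1, the other ligand-binding target, was 1.15 times as large in Seh1cKO, with an interval of 0.750 to 1.79 that holds 1. Hhip shares 175 exon bases with Gm27820 and Gli3 shares 188 with Gm6556, both on the opposite strand. Sufu, the cytoplasmic protein that binds and restrains the Gli factors (Entrez 24069, chromosome 19, 46396896 to 46488804), had 689 reads in Seh1cKO and 680 in control, or 33.4 and 32.8 CPM. Its ratio was 1.02 (0.916 to 1.14), so differences of more than about 1.14-fold lie outside its counting interval. The direction of the small Sufu value turned with the scaling, with a log2 ratio of -0.05 where libraries were scaled by the median of ratios or by TMM, the trimmed mean of M values. The read ratio of Ptch1 to Sufu, free of scaling, was 1.38 times as large in Seh1cKO (1.21 to 1.57).

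Ordered by FPKM, the members fell into a steep series that was nearly the same in both libraries. Gas1 and Smo came first and second in Seh1cKO, and second and first in control, where Gas1 was at 22.84 and Smo at 24.59 FPKM. Ptch1 was the third in both, followed by Sufu at 7.31 FPKM in Seh1cKO and 7.17 in control, then Boc, Gli2, Gli3, Hhip and Gli1. Thus 7 of 9 members kept their place. Sufu and Boc were neighbours in control (7.17 and 7.03 FPKM) and stood further apart in Seh1cKO (7.31 and 5.79). Hhip, at 0.32 FPKM in Seh1cKO and 0.2 in control, was far below the surface proteins with which it competes for ligand. Of the members, Ptch1, Gas1 and Gli3, lie on chromosome 13, at separate loci.

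**Figure D3:**
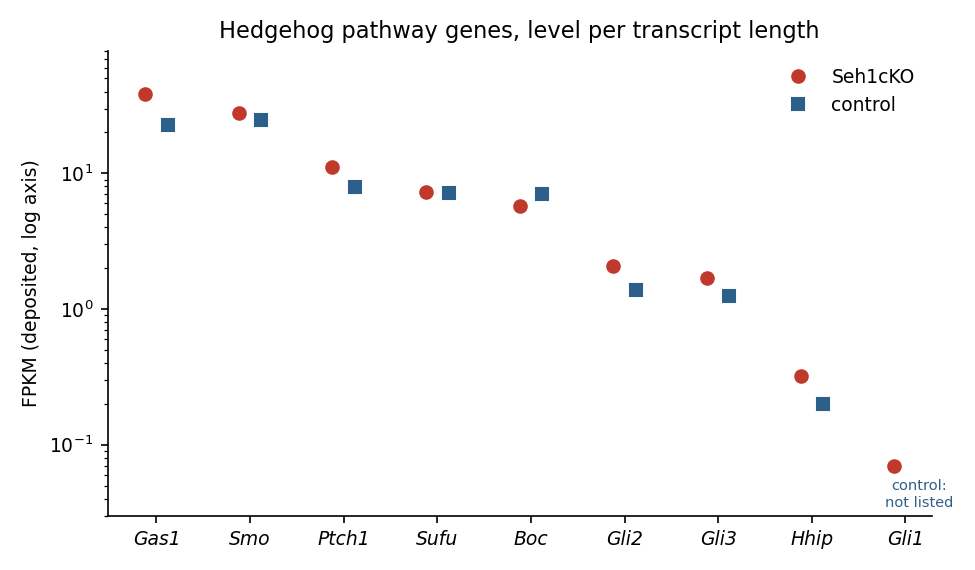
Deposited FPKM of the 9 members on a log axis, with Seh1cKO as circles and control as squares, 1 library each, ordered by the Seh1cKO level. Gas1 is at 38.27 FPKM in Seh1cKO and 22.84 in control, and Hhip at 0.32 and 0.2. Gli1 is at 0.07 FPKM in Seh1cKO and has no control point because it was not listed there.

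Genes upstream of the receptors differed more than the members did. In a list of 8 genes for ligands and their release, 6 were measured, 2 of them at least 2-fold higher and none lower, with a median log2 ratio of 0.93. Over all measured genes, 2.86% were at least 2-fold higher and 1.29% lower. Shh, the ligand Sonic hedgehog (Entrez 20423, chromosome 5, 28456840 to 28467101), had 632 reads in Seh1cKO and 77 in control, or 30.7 and 3.71 CPM. It was 8.26-fold higher (6.51 to 10.6). On the FPKM scale Shh was at 11.19 in Seh1cKO beside Ptch1 at 11.15, a ratio of 1.00, and in control at 1.35 beside 7.95, a ratio of 0.170. Dhh, the ligand Desert hedgehog, had 11.1 CPM in Seh1cKO and 5.35 CPM in control and was 2.08-fold higher (1.65 to 2.63). Scube1, a secreted protein of a family known to carry ligand away from its source, had 10.7 CPM in Seh1cKO and 2.41 CPM in control, 4.43-fold higher (3.24 to 6.15). Hhat, the enzyme that attaches palmitate to the ligand, had 64 reads in Seh1cKO and 24 in control, 2.68-fold higher (1.66 to 4.49). Disp1, which releases the lipid-bearing ligand from the cell, was 1.35-fold higher (1.12 to 1.64). With the pseudocount of 1 CPM, Shh and Scube1 of this list were past 2-fold, whereas 4 genes were with a pseudocount of 0.1 CPM and 1 was on the FPKM scale.

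The library with more Shh also held more of the epithelial and mesothelial markers. Of 9 such genes, 6 of the 7 measured were at least 2-fold higher in Seh1cKO, and their summed level was 204 CPM in Seh1cKO and 11.2 CPM in control. Krt8 had 78.7 CPM in Seh1cKO and 0.772 CPM in control, Krt18 had 63.9 and 1.21 CPM, and Msln had 24.9 and 0.0965 CPM. Epcam was at 7.04 CPM in Seh1cKO and 7.91 CPM in control, and Upk3b and Wt1 were not listed for Seh1cKO and had 2 and 1 reads in control. Which cells carried the Shh reads, or the reads of these markers, is not known from bulk RNA and was not tested.

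Other receptors and surface proteins had no settled median. Among 6 such genes, 5 were measured, with a median log2 ratio of 0.03, but 0.18 with no floor and 0.46 with a floor of 5 CPM. Lrp2, the large endocytic receptor that also takes up ligand, had 38.2 CPM in Seh1cKO and 17.8 CPM in control, 2.14-fold higher (1.89 to 2.43), and it was the 1 gene past 2-fold. It was no longer past 2-fold with a pseudocount of 5 CPM, with median-of-ratios or TMM scaling, or on the FPKM scale. Gpc3, a glypican that competes with Ptch1 for ligand, had a ratio of 0.907 (0.637 to 1.29). Mgrn1, a ubiquitin ligase that lowers the amount of Smo at the surface, had a ratio of 0.972 (0.919 to 1.03).

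All 22 genes of signal transduction and Gli processing were within 2-fold, 13 with a log2 ratio above 0 and 9 below, with a median of 0.03. Over all 13758 measured genes, 13186 were within 2-fold, 60.9% were above 0 and the median was 0.07. These 22 genes therefore do not stand apart by such counts. Evc, a ciliary protein that binds Smo, was 1.71-fold higher (1.51 to 1.93) at 34.4 CPM in Seh1cKO and 20.1 CPM in control. Its partner and neighbour on chromosome 5, Evc2, was 1.35-fold higher (1.19 to 1.53). Tulp3, which carries receptors into the cilium, was 1.40-fold higher (1.30 to 1.50), and the kinase Dyrk2 1.39-fold higher (1.11 to 1.76). Abundant kinases that phosphorylate Gli proteins did not share a direction. Prkaca, a catalytic subunit of protein kinase A, was at 198 CPM in Seh1cKO and 213 CPM in control, 1.07-fold lower (1.03 to 1.12), and Csnk1a1 at 169 and 171 CPM. Prkacb, another catalytic subunit of that kinase, named after its values were seen, was at 167 CPM in Seh1cKO and 130 CPM in control, 1.28-fold higher (1.22 to 1.35).

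Genes of the primary cilium, the organelle on which the pathway depends, were also close to equality. All 31 were measured and within 2-fold, 20 with a log2 ratio above 0 and 11 below, with a median of 0.05 and a range of -0.25 to 0.43. Of all 13758 measured genes, 13186 were within 2-fold and 60.9% were above 0, with a median of 0.07. The cilium counts are thus near those of genes in general. With TMM scaling these small medians turned sign, to -0.04 for the cilium genes and -0.05 for the signal transduction genes. The median of the other receptors and surface proteins became -0.05, and that of all measured genes turned as well, to -0.01. Cep164, a protein of the appendages that dock the cilium, was 1.37-fold higher (1.20 to 1.55), and the transport proteins Wdr35 and Traf3ip1 were 1.33-fold (1.20 to 1.48) and 1.30-fold higher (1.11 to 1.52). Cep290, of the transition zone, had a ratio of 1.33 (0.987 to 1.80). The most abundant genes of this list stood lower, with Arl3, a GTPase that unloads lipid-bearing cargo in the cilium, at 149 CPM in Seh1cKO and 174 CPM in control, and the kinesin gene Kif3a at 95.4 and 114 CPM.

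Most other reported Gli target genes stood higher in Seh1cKO. Of 16, 12 were measured, with a median log2 ratio of 0.39. Their counting interval lay above 1 in 10 and below 1 in Nkx2-2 and Jag2. Over all measured genes 35.5% of intervals lay above 1 and 20.0% below 1. Jag2, a Notch ligand, was 1.35-fold lower (1.07 to 1.72). With the pseudocount of 1 CPM, 2 higher genes and 1 lower gene were past 2-fold, and 9 lay between. Over all measured genes, 2.86% were at least 2-fold higher and 1.29% lower. With that pseudocount Foxd1 had a log2 ratio of 0.96, although its CPM ratio given below is past 2-fold. On the higher side, 3 genes were past 2-fold with a pseudocount of 0.1 CPM. Only 1 was with a pseudocount of 5 CPM, a floor of 5 CPM or the FPKM scale. Ccnd1, the G1 cyclin that many pathways induce, had 1348 CPM in Seh1cKO and 495 CPM in control, 2.72-fold higher (2.66 to 2.79), and Ccnd2 had 710 and 503 CPM, 1.41-fold higher (1.38 to 1.45). The forkhead genes Foxf2 and Foxd1 had 73 and 60 reads in Seh1cKO against 14 and 21 reads in control, 5.25-fold (2.94 to 10.1) and 2.88-fold higher (1.72 to 4.98). Foxf2 and Foxd1 are also genes of pericytes and other mesenchymal cells, whose markers had a median log2 ratio of 1.64 here. Their part in these values was not tested. Nkx2-2, a homeodomain factor of ventral progenitors and of differentiating oligodendrocytes, had 58.9 CPM in Seh1cKO and 125 CPM in control, 2.11-fold lower (1.97 to 2.27).

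**Figure D4:**
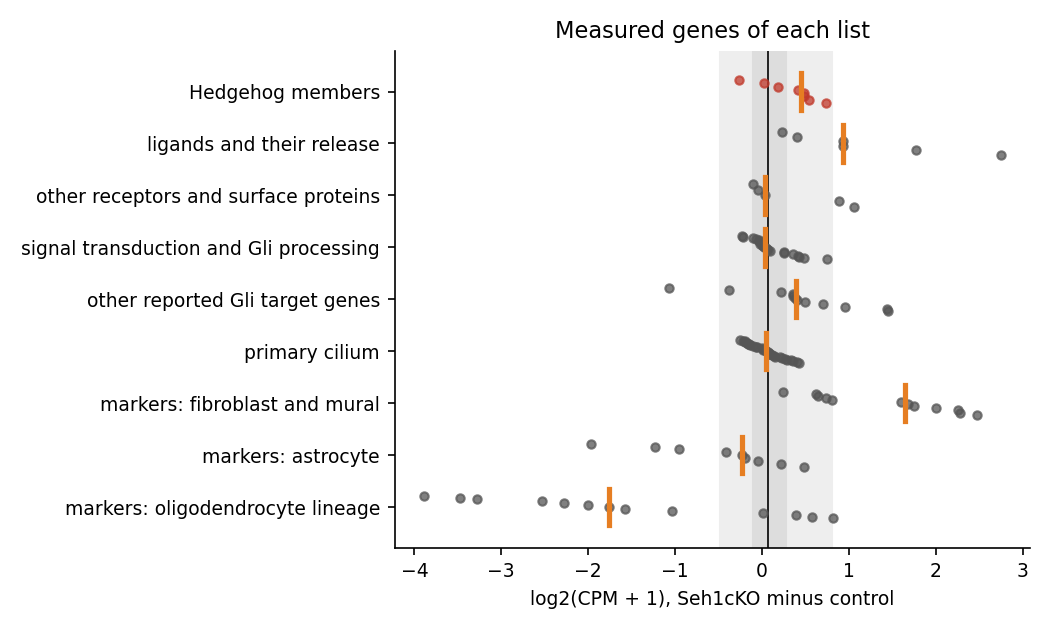
Difference in log2(CPM + 1), Seh1cKO minus control, for each measured gene of the lists, 1 point per gene and orange bars for list medians. The line marks the median of all 13758 measured genes, and the shades their middle 50% and middle 90%. Hedgehog members have a median of 0.45, ligand genes of 0.93 and primary cilium genes of 0.05, while fibroblast and mural markers have a median of 1.64 and oligodendrocyte lineage markers of -1.76.

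In the authors' deposited table of 896 genes that differed between the libraries, none of the 9 members was listed, where 4.80% of all genes with reads were, so this 0 says little about the members. Its smallest absolute log2 fold change is 1.00. Of the 52 other pathway genes, 10 were in the authors' deposited table, 9 of them higher and Nkx2-2 lower. The whole table leans the same way, with 659 genes higher and 237 lower. In that deposited table the authors' log2 fold change was 3.05 for Shh, 2.12 for Scube1, 1.41 for Hhat, 1.06 for Dhh and 1.10 for Lrp2. None of the 31 primary cilium genes was in the authors' deposited table, which beside the share of 4.80% also says little.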

How the data were processed

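RNA sequencing of 2 libraries was used, 1 per genotype. For each library the authors deposited an expected count, an FPKM and a transcript length per gene under Entrez identifiers. Named in the submitters' processing notes are HTSeq, StringTie and mm10; these notes do not tie a tool to a column, and no aligner or strand setting is stated. Of the deposited expected counts, 29.5% in Seh1cKO and 29.3% in control were fractional, and all were rounded. A deposited comparison table holds the authors' log2 fold change, p-value and false discovery rate, from 1 library per group, by a test that is not stated. Genes a table does not list were set to 0. No column of per-sample values was left unmapped.

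Rounded counts were scaled to CPM, and log2(CPM + 1) was compared for genes at a mean of at least 1 CPM; the pseudocount understates differences of low genes. Ratios carry exact 95% Clopper-Pearson intervals, and changes of within-library ratios exact conditional ones (scipy 1.17.1). Reads carry no molecular identifiers here, so these cover counting error at most. The script was tested on simulated data. Coordinates and promoters are from RefSeq GRCm38.p6, the assembly of mm10 (18611 of 18651 identifiers matched), and exon overlaps from a GENCODE annotation of the same assembly. TMM factors came from edgeR 4.0.16. All members are described; of the other lists, the up to 4 measured genes with the largest absolute log2 ratio and the up to 2 most abundant, and of marker lists up to the 3 most abundant. Some genes that these rules name are not reported here. Olig1 and the sex-linked genes serve as checks. Epcam, Upk3b, Wt1, Prkacb, Jag2, Scube3, Pdgfra, Cspg4, Gja1 and Aldh1l1 were named after their values were seen. Members and lists were chosen with earlier results of these data known.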

Additional observations from a re-analysis of the deposited data

How the results depend on the processing

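No paired analysis was possible because each group has 1 library, and for the same reason no library could be left out. Under all 8 alternatives run, 0 members above the floor were at least 2-fold higher or lower. The alternatives were pseudocounts of 0.1 and 5 CPM, and scaling by the median of ratios, the upper quartile or TMM. The others were the deposited FPKM values, no floor and a floor of 5 CPM. The largest CPM ratio of a measured member was 1.68, in Gas1. A change of pseudocount or a higher floor therefore could not bring a measured member to 2-fold. Gli1, below the floor, had a log2 ratio of 1.97 with a pseudocount of 0.1 CPM. The median over members ran from 0.22 on the FPKM scale and 0.27 with a pseudocount of 5 CPM up to 0.47 with a pseudocount of 0.1 CPM. Of the members, Sufu alone had a log2 ratio that changed sign (-0.05 to 0.03 over the settings). Over all genes, 394 were at least 2-fold higher, but 637 with a pseudocount of 0.1 CPM, 141 with 5 CPM, 204 on the FPKM scale and 228 with a floor of 5 CPM, and 178 were at least 2-fold lower, but 116 with a pseudocount of 5 CPM. The median of the signal transduction genes was -0.05 with median-of-ratios scaling (-0.0461) and with TMM (-0.0528). The median of all measured genes was -0.0049 and -0.0113 in these settings. Of the order by FPKM, 7 members held the same place in both libraries. TPM from the deposited lengths also gave 7, but this is no separate check. Both scales divide the same counts by length, which fixes the order within a library. Depth limits Gli1 and Hhip most, and without replicates no interval holds variation between cultures.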

Other observations

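Some pathway genes were below the floor of a mean of 1 CPM and entered no comparison. They are given as values, chosen after these were seen. Ihh, the ligand Indian hedgehog, had 5 reads in Seh1cKO and 5 in control. Scube2 had 2 reads in Seh1cKO and 7 in control. Nkx6-1, a homeodomain factor of ventral progenitors, had 12 reads in Seh1cKO and was not listed for control. Against a floor of 3 reads that is 4.03-fold higher, without the counting error of the 12 reads. The exact lower bound from 12 and 0 reads was 2.80. Foxf1 had 15 reads in Seh1cKO and 8 in control, and Foxl1 had 11 and 10.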
